A study of Homo sapiens with 6 samples.

Results

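RNF25, GCN1 and the ASC-1 complex belong to a small group of factors that act when a ribosome stalls on a message, and 10 of them were followed here among the 30267 genes of the deposited table. The members were taken by symbol (RNF25, RNF14, GCN1, EEF1A1, ZNF598, EDF1, ASCC1, ASCC2, ASCC3 and TRIP4). All 10 were found in the table and all 10 passed the filter on low values. The question was how their messages stood in cells in which RNF25 had been knocked down.

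Bulk RNA-seq was made from the established cell line SW839, derived from a renal cell carcinoma. In 3 libraries the cells carried a lentiviral hairpin against RNF25 (shRNF25), and in 3 they carried the pLKO vector (shControl). According to the study's methods, both kinds of cells were infected and selected with puromycin, and no drug or cytokine is named for these libraries in the labels. The shRNF25 library names point to 1 hairpin, so that an effect of the hairpin on other transcripts cannot be told apart from loss of RNF25. The treatment label speaks of the shRNF25 plasmid for the controls too, and the groups rest on titles and genotype labels. The design text calls the triplicates biological, but whether they came from separate infections is not given, and p-values measure the spread between these libraries.

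When a ribosome halts with an occupied or blocked A site, the ribosome behind it can run into it. GCN1 binds such collided ribosomes. The E3 ubiquitin ligases RNF14 and RNF25 act with it. This branch deals with translation factors trapped in the A site, among them the elongation factor eEF1A (EEF1A1). On another branch EDF1 is an early sensor of collided ribosomes, and the ligase ZNF598 ubiquitinates proteins of the small subunit. The ASC-1 complex, made of ASCC1, ASCC2, ASCC3 and TRIP4, then pulls the leading ribosome apart. TRIP4 is also a transcriptional coactivator. The study reports that RNF25 binds and ubiquitinates TRIP4, and that RNF25 knockdown left the TRIP4 protein level unaffected. Message counts do not measure such a modification.

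The libraries held 18647460 to 19943154 reads on genes. Each member had at least 235 reads in each library. The deposited values are read counts divided by a size factor for each library, called normalized counts below, and they are not corrected for gene length. The size factors were 0.905 to 0.975 in shControl and 1.05 to 1.10 in shRNF25, so that small differences between the groups depend on the scaling. The control libraries varied more than the shRNF25 libraries, as their pairwise Pearson correlations show (0.976 to 0.987, against 0.994 for shRNF25, across genes, which are not independent replicates). Their library names also differ in form, and the knockdown cannot be told apart from any batch shared by the libraries of 1 group. Of the renal line markers, KRT8, KRT18, EPAS1, VIM and PAX8 were present in each library, whereas CA9 (1.85 to 50.7) and NDUFA4L2 (10.5 to 33.5) were low. Summed over the 7 of 8 listed renal markers in the table, most of it KRT8 and KRT18, the level was 43970 to 56638 in shControl and 58340 to 62358 in shRNF25. The summed leukocyte markers (4 of 5 listed were in the table) lay at 16.2 to 22.6 in shControl and at 11.4 to 22.8 in shRNF25. The 4 endothelial markers summed to 489.4 to 695.1 and 494.1 to 645.1, and the 4 fibroblast markers to 1098 to 1289 and 865.3 to 1014, nearly all of it COL1A1, while the fibroblast marker DCN was at 0 to 1.03. Within the endothelial list the genes did not move together. CDH5 (VE-cadherin) stood at 73.0 to 198.6 in shControl and at 3.64 to 8.31 in shRNF25, and it entered the tested genes only through its controls. KDR, a receptor for vascular endothelial growth factor, stood at 17.3 to 29.8 and 81.3 to 88.4, and PECAM1 lay at 349.9 to 549.4 over all libraries. Among the renal markers VIM was higher in shRNF25 (803.7 to 881.9, against 202.9 to 447.7), and PAX8 lay lower without passing the test (76.7 to 109.6, against 118.0 to 140.3, adjusted p = 0.110 from limma). The part of these markers in the results was not tested.

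RNF25 and EDF1 were lower in shRNF25, and no member was higher past the test. The test was limma on log2(normalized count + 1) over the 16554 genes that reached a value of 10 in 3 or more libraries, with Benjamini-Hochberg adjustment over all of them and a threshold of 0.05. Fold changes below are on this log2 scale, as shRNF25 over shControl. Calls were made for 2 of the 10 members, where 21.3% of all tested genes were called in either direction. Lower calls made up 2 of 10, against 10.8% of all tested genes, and higher calls 0 of 10, against 10.5%. RNF25, the target of the hairpin, is in each count of lower or non-overlapping members in this paragraph. Its part in these counts was set by the design, and EDF1 was the only other lower call. The groups did not overlap in 5 of the 10 members, against 42.5% of tested genes, a share near the background. At an unadjusted p below 0.05, limma gave 3 lower members and 0 higher ones. The share of all tested genes at that threshold is not given here, so no weight is put on these counts. With adjusted p-values, edgeR and DESeq2 on recovered reads each gave 2 lower and 0 higher. Of all 16554 tested genes, edgeR called 1657 lower and 1869 higher, and DESeq2 called 2037 and 1838. With the fold change of at least 1.5 that the study required, RNF25 alone was called (1 of 10 members), where 15.7% of tested genes were called in either direction, 7.10% lower and 8.65% higher. The median log2 fold change of the members was -0.07, and that of all tested genes was -0.01.

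**Figure D1:**
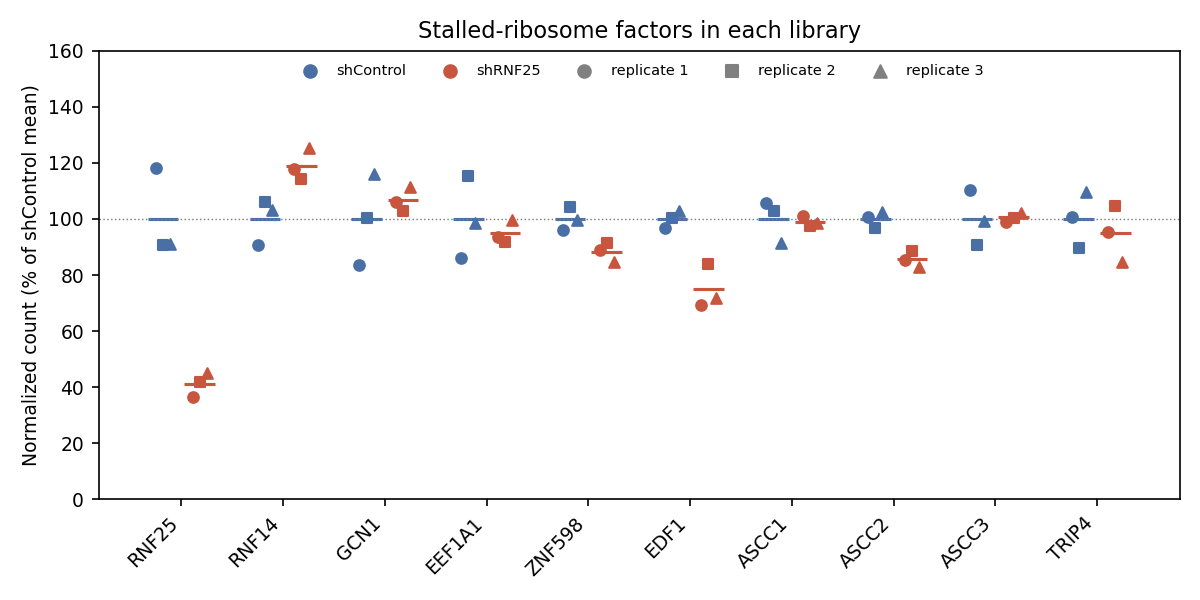
Normalized count of each member in each library, in percent of the shControl mean of that gene (symbols mark the replicates, short lines the group means). RNF25 in shRNF25 lies at 41.1% on average, EDF1 at 75.1% and RNF14 at 119.1%, and the groups of GCN1, EEF1A1, ASCC1, ASCC3 and TRIP4 overlap.

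RNF25 is the target of the hairpin and the check of the labels. It encodes a RING-type E3 ligase that also carries an RWD domain. In shControl its normalized count was 694.2, 533.5 and 536.4 (replicates 1, 2 and 3, the order used throughout), and in shRNF25 it was 214.1, 245.7 and 265.0. Each shRNF25 library was thus far below each control, and control replicate 1 stood above the other two. Its log2 fold change was -1.27 (95% confidence interval -1.61 to -0.94, adjusted p = 0.000585 from limma), a residual level of 41.1%. The two-sided exact permutation test gave p = 0.1, which is the smallest value that 3 libraries against 3 allow. Of all tested genes, 94.1% had a smaller absolute change.

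The minus strand of chromosome 2 carries RNF25 between 218663864 and 218672411 (GRCh38, GENCODE 29), and STK36, a kinase gene of the Hedgehog and ciliary pathways, runs away from it on the plus strand. In RefSeq the starts of the genes are 84 bases apart. The region around both starts is printed because the messages on its sides moved in opposite directions. Any part of this region in these changes was not tested. The stretch is chr2:218671953-218672252 of GRCh38.p14, read on the minus strand from 250 bases before to 50 bases after the RefSeq start of RNF25. The capitals mark the 83 bases between the start of STK36 on their left and that of RNF25 on their right.
RNF25 promoter: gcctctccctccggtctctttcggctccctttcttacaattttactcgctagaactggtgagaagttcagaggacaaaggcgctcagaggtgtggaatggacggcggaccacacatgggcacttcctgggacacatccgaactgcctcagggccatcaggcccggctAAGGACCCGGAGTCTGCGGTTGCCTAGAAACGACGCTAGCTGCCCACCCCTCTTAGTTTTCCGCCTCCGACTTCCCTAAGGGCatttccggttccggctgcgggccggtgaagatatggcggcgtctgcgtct

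STK36 rose where RNF25 fell. It had 677.6, 778.8 and 928.2 normalized counts in shControl, against 1154, 1192 and 1204 in shRNF25. The groups did not overlap, and the shRNF25 values were tightly spaced while the controls spread widely. The difference was 0.59 on the log2 scale (95% confidence interval 0.29 to 0.88, adjusted p = 0.0130 from limma, exact permutation p = 0.1). The call was lost without shRNF25 replicate 1 (adjusted p = 0.0626), 2 (0.0689) or 3 (0.0727), at log2 fold changes of 0.57 to 0.60. In GENCODE 29, 260 exonic bases (11.2% of the exon bases of RNF25) overlap STK36 on the other strand. The study's methods name a stranded library kit. Whether reads were counted by strand is not given in the sources used here, so reads of this overlap cannot be assigned with certainty. The part of the overlap in the STK36 value was not tested.

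**Figure D2:**
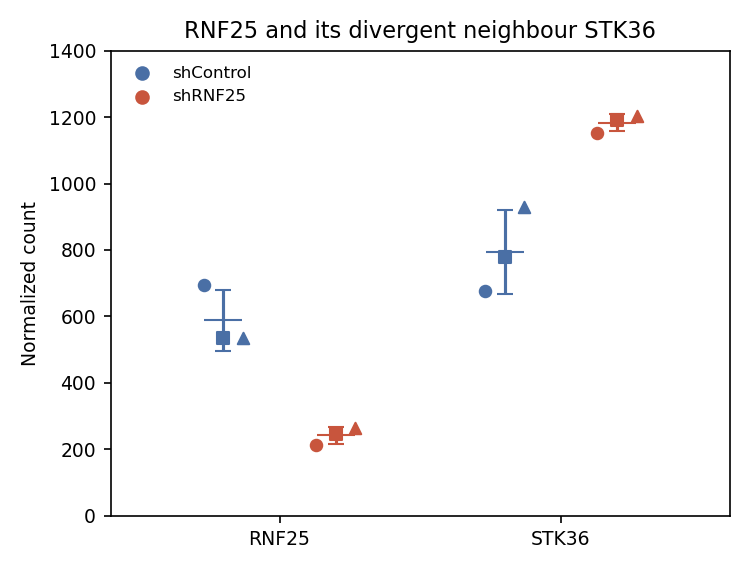
Normalized count of RNF25 and STK36 in each library (symbols mark the replicates, bars the mean ± SD of 3 libraries). RNF25 went from 588.1 to 241.6 and STK36 from 794.9 to 1183 on average, and the groups do not overlap in either gene.

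The other ligase of the GCN1 branch, RNF14, is a RING-between-RING enzyme with an RWD domain like that of RNF25. Its gene spans 141958328 to 141990291 on chromosome 5. The normalized count of RNF14 was 566.0, 659.7 and 643.3 in shControl, and 734.4, 711.1 and 779.7 in shRNF25. The shRNF25 libraries were all above the controls, but the difference did not pass the test, with a log2 fold change of 0.25 (95% confidence interval -0.00 to 0.51, adjusted p = 0.144 from limma, exact permutation p = 0.1). Such a separation in this direction was seen for 20.7% of tested genes. Since both genes are read in the same library, their ratio does not depend on the scaling. Per kilobase of the principal transcript, RNF25 stood at 2.71, 1.79 and 1.85 times RNF14 in the controls and at 0.645, 0.764 and 0.752 times RNF14 in shRNF25 (exact permutation p = 0.1). RNF25 was thus the more abundant of these ligase messages in each control and the less abundant in each shRNF25 library.

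GCN1, the scaffold that binds collided ribosomes and activates the kinase GCN2, spans 120127203 to 120194710 of chromosome 12. Its message had a normalized count of 8062, 9652 and 11164 in shControl, and 10212, 9912 and 10725 in shRNF25. The controls alone spanned the whole range of the knockdown. The log2 fold change was 0.11, and its 95% confidence interval ran from -0.19 to 0.40, which in linear terms allows anything from 0.878-fold to 1.32-fold (adjusted p = 0.595 from limma). Without shControl replicate 1, the lowest control, the log2 fold change was -0.01.

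EEF1A1 delivers aminoacyl-tRNA to the ribosome, and on the stalled A site it is a target of the branch in which RNF14 and RNF25 act. It spans 73515750 to 73523797 of chromosome 6. Normalized counts of EEF1A1 were 82083, 109726 and 93820 in shControl, and 88978, 87444 and 94954 in shRNF25, so that the groups overlapped. Its log2 fold change was -0.06 (95% confidence interval -0.38 to 0.25, adjusted p = 0.780 from limma). Under quantile normalization it was 0.62, with an adjusted p of 0.0372, and the sign also turned without shControl replicate 2 (0.04) and with scaling by total reads (0.14). EEF1A1 has many processed pseudogenes, and 29.3% of the 50-base words of its principal transcript also occur in transcripts of other genes, EEF1A1P5 first among them. The 18 pseudogene rows in the table summed to 1.5 to 2.66% of EEF1A1 in each library, and the counting could have split reads between these copies, so the level is uncertain. EEF1A1P5, which held most of that sum, had 1446 ± 208.3 in shControl and 1325 ± 24.3 in shRNF25 (SD, n = 3) and did not pass.

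**Figure D3:**
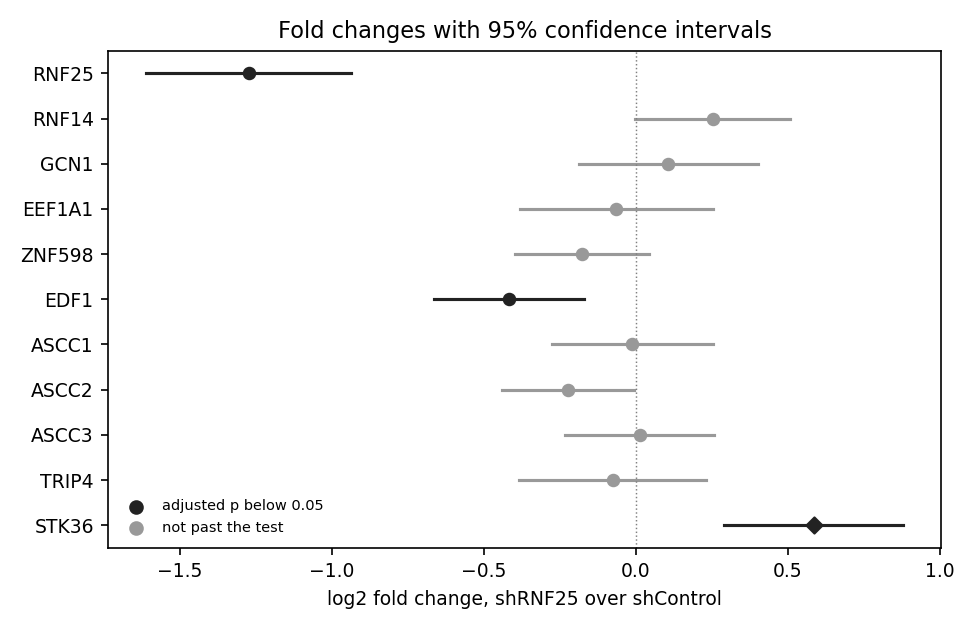
Log2 fold change of the members and of STK36, as shRNF25 over shControl, with the 95% confidence interval from limma (3 libraries in each group). RNF25 at -1.27, EDF1 at -0.42 and STK36 at 0.59 are past the test, and the other intervals are drawn in grey.

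EDF1, the small protein that marks collided ribosomes and recruits the repressors GIGYF2 and 4EHP, was the other member that fell. The gene spans 136862119 to 136866286 of chromosome 9. EDF1 stood at 2398, 2482 and 2543 normalized counts in shControl, and 1714, 2080 and 1780 in shRNF25. The groups did not overlap, and shRNF25 replicate 2 was nearer to the controls than replicates 1 and 3. Its fall was -0.42 on the log2 scale (95% confidence interval -0.66 to -0.17, adjusted p = 0.0252 from limma, exact permutation p = 0.1). The call was lost without shControl replicate 2 (adjusted p = 0.0568), shRNF25 replicate 1 (0.141) or shRNF25 replicate 3 (0.138), and under quantile normalization (0.0704) or scaling by total reads (0.197). The sign held in each of these fits. No 50-base word of its principal transcript was shared with another gene.

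ZNF598, the ligase that marks eS10 and uS10 on collided ribosomes, spans 1997654 to 2009823 of chromosome 16. Normalized counts of ZNF598 were 1802, 1958 and 1870 in shControl, and 1668, 1715 and 1592 in shRNF25. All shRNF25 libraries were below the controls, as in 21.8% of tested genes, yet the test was not passed. Its log2 fold change was -0.18 (95% confidence interval -0.40 to 0.04, adjusted p = 0.228 from limma), and scaling by total reads turned it to 0.03. In GENCODE 29, 504 exonic bases (10.7%) overlap the long non-coding gene AC005606.1 on the other strand.

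Of the 4 subunits of the ASC-1 complex, none passed the test. ASCC2, the subunit that binds ubiquitin chains, spans 29788608 to 29838304 of chromosome 22. Its message stood at 1761, 1696 and 1791 normalized counts in shControl, and 1495, 1547 and 1453 in shRNF25. The groups did not overlap, and the log2 fold change was -0.22 (95% confidence interval -0.44 to -0.01, adjusted p = 0.131 from limma, exact permutation p = 0.1). Without shControl replicate 1 the adjusted p was 0.0418. Scaled by total reads, the log2 fold change was -0.02.

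TRIP4, the zinc-finger subunit of the complex, spans 64387748 to 64455303 of chromosome 15. The TRIP4 message had a normalized count of 369.2, 329.4 and 402.6 in shControl, and 349.9, 384.2 and 310.7 in shRNF25. The libraries of both groups were mixed in order. The difference was -0.08 on the log2 scale (95% confidence interval -0.38 to 0.23, adjusted p = 0.730 from limma, exact permutation p = 0.6). In linear terms the interval runs from 0.766-fold to 1.17-fold, so that a moderate change of the TRIP4 message was not detectable with these libraries.

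ASCC3, the helicase of the complex, and ASCC1, a subunit with an RNA ligase-like fold, showed the smallest differences of all members. ASCC3 (chromosome 6, 100508194 to 100881372) had a normalized count of 1505, 1236 and 1353 in shControl, and 1352, 1371 and 1394 in shRNF25. Its log2 fold change was 0.01 (95% confidence interval -0.23 to 0.26). ASCC1 (chromosome 10, 72096032 to 72217134) had 426.7, 414.5 and 369.1 in shControl, and 408.2, 393.4 and 397.5 in shRNF25. Its log2 fold change was -0.01 (95% confidence interval -0.27 to 0.25). The shRNF25 values of both genes lay inside the range of their controls, and the sign turned in 8 of 17 alternatives for ASCC1 and, for ASCC3, without shControl replicate 2 (-0.06).

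The make-up of the complex at the message level can be compared within each library, free of the scaling. Per kilobase of principal transcript, ASCC2 took 54.3, 56.2 and 55.9% of the sum of the 4 subunits in shControl, and 52.0, 52.1 and 52.2% in shRNF25. The ASCC2 share was lower in each shRNF25 library, at a mean of 55.5% ± 1.02 against 52.1% ± 0.113 (SD, n = 3, exact permutation p = 0.1, the smallest possible). TRIP4 took 15.1 to 17.3% in shControl and 15.4 to 17.9% in shRNF25 (exact permutation p = 0.6). The shares of ASCC1 (12.1 to 14.5% in shControl and 13.95 to 15.03% in shRNF25) and ASCC3 (14.2 to 16.1% and 16.0 to 17.4%) each gave an exact permutation p of 0.2.

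Levels per kilobase of transcript differed widely between the members. In shControl, EEF1A1 was highest, at 21439 ± 3124 normalized counts per kilobase (SD, n = 3). EDF1 followed at 3866 ± 114, then GCN1 at 1110 ± 179, ASCC2 at 619.6 ± 17.1, ZNF598 at 556.7 ± 23.2 and RNF25 at 307.2 ± 48.0. TRIP4 (179.5 ± 17.9), ASCC3 (167.5 ± 16.5), ASCC1 (150.4 ± 11.3) and RNF14 (147.1 ± 11.8) closed the order, and the control libraries of neighbours among these 4 overlapped. In shRNF25, RNF25 dropped to 126.2 ± 13.4 and to the lowest place by this length. The order depended on the length used. With the union of all exons as the length, ZNF598 (399.2) stood above ASCC2 (323.0) in shControl, RNF14 (124.9) stood above TRIP4 (117.1) and ASCC3 (116.3), and ASCC1 (72.2) was lowest. By that length RNF25 in shRNF25 (104.0) stayed above ASCC1 (71.6).

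**Figure D4:**
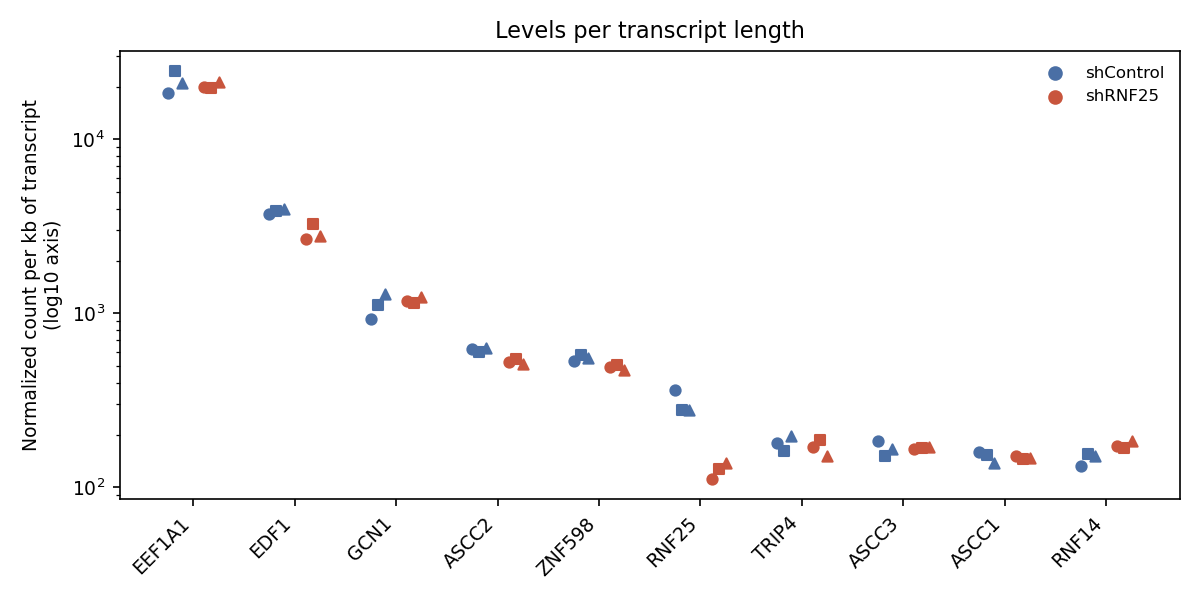
Normalized count per kilobase of the principal transcript (GENCODE 29) for each member and library, on a log10 axis, ordered by the shControl mean. EEF1A1 lies near 21439 in shControl and RNF14 near 147.1, and RNF25 has the lowest level in shRNF25 by this length, though not by the union of all exons.

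Around these members, 53 other genes of stalled-ribosome handling were counted in 5 lists, of which 52 were in the table and tested. Lower calls numbered 5 and higher calls 0, a share of 9.62% lower against 10.8% of all tested genes. At an unadjusted p below 0.05 limma gave 8 lower and 3 higher genes, without a share of all tested genes to set beside them. With adjusted p-values edgeR called 5 lower and 0 higher, and DESeq2 called 6 and 0. Over all 16554 tested genes edgeR called 1657 and 1869, and DESeq2 2037 and 1838. The limma counts of single lists below stand beside the same shares of all tested genes, 10.8% lower and 10.5% higher. The median log2 fold change over these genes was -0.11.

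Among the 14 genes of ribosome rescue and nascent-chain quality control, 2 fell, 0 rose and 12 did not pass. ANKZF1, which cuts stalled chains from their tRNA, had 1682, 1748 and 1733 normalized counts in shControl, and 927.6, 920.7 and 865.5 in shRNF25. Both groups were tight and far apart (log2 fold change -0.93, standard error 0.10, adjusted p = 0.000343 from limma). GTPBP2, a translational GTPase that works with Pelota in rescuing stalled ribosomes, had 2723, 3031 and 3129 in shControl, and 1723, 1578 and 1520 in shRNF25 (log2 fold change -0.88, standard error 0.11, adjusted p = 0.000688 from limma). ANKZF1 and GTPBP2 stayed past the test in all 17 alternative fits, at -0.95 to -0.72 and -0.94 to -0.67. Pelota itself (PELO) at -0.16, its partner HBS1L at -0.25, the ligase LTN1 at -0.09 and NEMF at -0.05 did not pass.

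**Figure D5:**
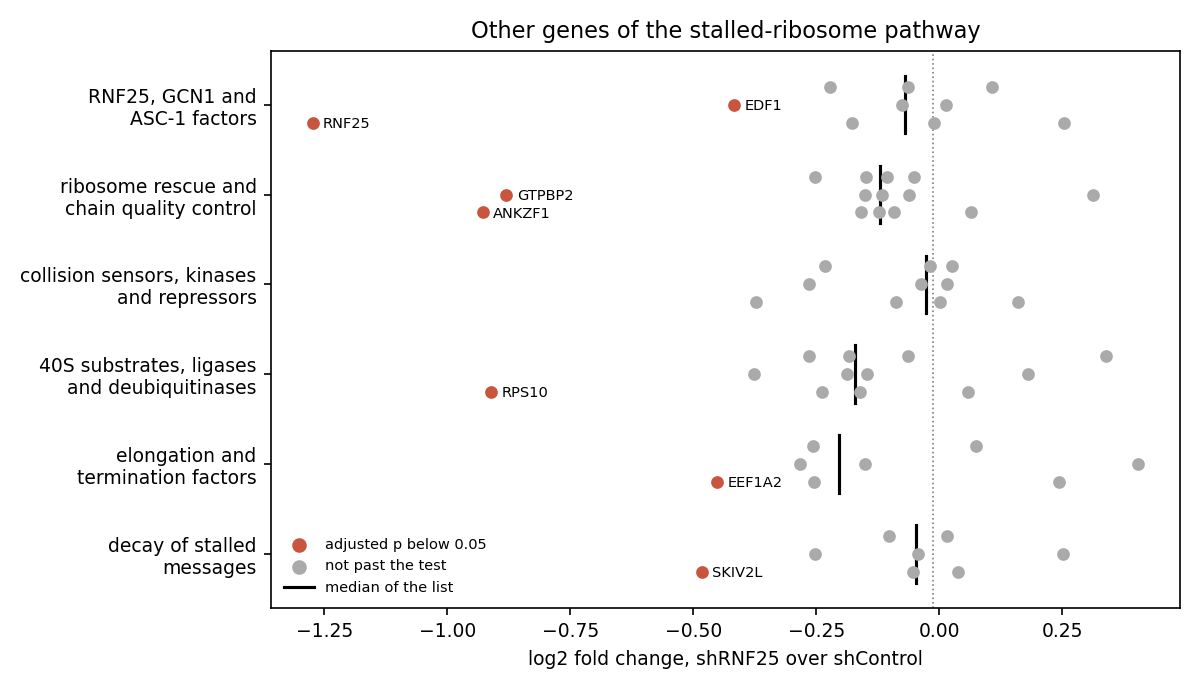
Log2 fold change, shRNF25 over shControl, of the members and of the tested genes of 5 further lists (red points are past the test and named, black bars are list medians, and the dotted line is the median of all tested genes). The red points lie between -1.27 (RNF25, the hairpin target) and -0.42 (EDF1). The calls of EDF1, RPS10, EEF1A2 and SKIV2L were lost in some alternative fits.

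Among the 10 collision sensors, stress kinases and translational repressors, limma called 0 genes, edgeR called 0 and DESeq2 called 1. That gene was IMPACT, which competes with GCN2 for GCN1. Its log2 fold change was -0.37 (adjusted p = 0.0531 from limma), at 431.7 to 500.8 in shControl and 340.8 to 363.2 in shRNF25. GCN2 itself (EIF2AK4) was at 0.00, the collision kinase ZAK (MAP3K20) at -0.09, and the EDF1 partners GIGYF2 and 4EHP (EIF4E2) at -0.04 and 0.16.

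In the list of small-subunit substrates, their ligases and deubiquitinases, 1 of 12 genes fell and 0 rose. With adjusted p-values, edgeR and DESeq2 each called 1 lower and 0 higher. The gene that fell was RPS10, which encodes eS10, a substrate of ZNF598, with a log2 fold change of -0.91 (adjusted p = 0.0189 from limma). The value rests on 45 to 62 reads in shControl and 28 to 41 in shRNF25, and 95.6% of its 50-base words are shared with other genes, chiefly RPS10-NUDT3 and processed pseudogenes. The counting could have split its reads, and the change is uncertain. The call was lost in the fits without shControl replicate 2 (adjusted p = 0.0569) or shRNF25 replicate 2 (0.0825) or 3 (0.0981), and with scaling by total reads (0.0588), and the gene did not enter the fit with a minimum value of 50.

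Of 8 elongation and termination factors tested, 1 fell and 0 rose. EEF1A2, the second eEF1A gene, had 6344, 7750 and 7516 normalized counts in shControl, and 5193, 5106 and 5441 in shRNF25 (log2 fold change -0.45, standard error 0.11, adjusted p = 0.0192 from limma). It shared no 50-base word with EEF1A1. Its call was lost without shControl replicate 2 (adjusted p = 0.0534), without any of the shRNF25 replicates (0.0810 to 0.104), with quantile normalization (0.0973) and with scaling by total reads (0.192). The release factor genes ETF1, at 0.07, and GSPT1, at -0.15, did not pass.

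Of 8 genes of message decay, 1 fell and 0 rose. SKIV2L, the helicase of the SKI complex, had 2254, 3152 and 3289 in shControl, and 2036, 2049 and 2051 in shRNF25 (log2 fold change -0.48, adjusted p = 0.0442 from limma). Control replicate 1 lay close to the knockdown and apart from the other controls. Its call was lost in 5 of the 6 fits that left out a library (adjusted p = 0.0972 to 0.152), with no filter (0.0640), with quantile normalization (0.116), with rescaling on the median ratio (0.0852) and with scaling by total reads (0.260). Without shControl replicate 1 the log2 fold change was -0.65. Its partners TTC37, at -0.04, and WDR61, at 0.25, did not pass.

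The genes whose profile over the 6 libraries was nearest to that of RNF25, by Euclidean distance of centred log2 values, were KLHL7-DT (0.21), AC016831.1 (0.23) and P4HA1 (0.26). P4HA1, a subunit of collagen prolyl 4-hydroxylase, went from 3789, 2908 and 3460 in shControl to 1327, 1392 and 1385 in shRNF25. Since they were chosen for this likeness, their fall is a description and not a separate result.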

How the data were processed

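Total RNA depleted of ribosomal RNA was sequenced from 3 shRNF25 and 3 shControl samples of SW839, and groups were taken from the titles. The authors deposited a signal for each gene and library, a normalized count, made by dividing read counts by a size factor per library. The processing notes of the submitters name fastp, HISAT2, HTSeq and GRCh38, and the study names DESeq2 for its own tests. Strand setting and versions of the read processing are not given in the sources used here. Whole reads came back for 100% of the values (tolerance 0.01 reads).

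Values were fitted as log2(normalized count + 1) with limma 3.58.1 in R 4.3.3 (trend, group only) over 16554 genes with at least 10 in at least 3 libraries. Single values were compared by a two-sided exact permutation test with scipy 1.17.1. Alternatives used edgeR 4.0.16 and DESeq2 1.42.0 on recovered reads, other pseudocounts, filters and scalings, library weights by group, the replicate number as a block, and each library left out. Scaling by total reads was chosen after seeing the data. Scripts were tested on simulated data.

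Members, gene lists and tests were chosen with earlier results of these data known. The rule for names covered all members, called genes of the lists (at most 5 a list), genes that overlap a member, EEF1A1 pseudogenes and the 3 genes nearest RNF25. Besides STK36, PCDH12 overlaps RNF14 (adjusted p = 0.236 from limma) and ANAPC16 overlaps ASCC1 (0.870), and neither was called. AC005740.3 (overlaps RNF14) and AL121972.1 (overlaps EEF1A1) were too low to be tested, and AC005606.1 had no values. Other names (PELO, HBS1L, LTN1, NEMF, IMPACT, EIF2AK4, MAP3K20, GIGYF2, EIF4E2, ETF1, GSPT1, TTC37, WDR61, PECAM1, KDR, VIM, PAX8 and CDH5) were chosen after their values were seen. Symbols matched GENCODE 29 by name. SKIC2, SKIC3 and SKIC8 were found under the older symbols SKIV2L, TTC37 and WDR61, and EEF1G, PAX2 and MS4A1 were not analysed here. Promoter sequence comes from RefSeq on GRCh38.p14.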

Additional observations from a re-analysis of the deposited data

How the results depend on the processing

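RNF25 stayed lower with an adjusted p below 0.05 in all 17 alternative fits, with log2 fold changes from -1.34 to -1.07. The EDF1 call was lost under quantile normalization (-0.31), with the replicate number as a block (-0.42, adjusted p = 0.0522) and with scaling by total reads (-0.21), and the cause was not tested. Same-numbered libraries did not deviate together (correlations of -0.064, -0.087 and 0.047, against -0.139 to 0.183 for differently numbered ones). With 3 libraries a group, this cannot decide whether the numbers pair the libraries. Under the replicate block 1 member was lower, and 1527 of all tested genes were called lower and 1557 higher, against 1785 and 1740 without it.

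Scaling by total reads, added after seeing the data, moved the median of all tested genes to 0.19 and the share of higher calls from 49.4% (1785 lower and 1740 higher) to 77.3% (949 and 3240). Under this scaling RNF14 was called (0.46), and EEF1A1 (0.14), ZNF598 (0.0288), ASCC1 (0.20) and TRIP4 (0.13) were positive. These values include the shift of all genes, and which scaling is nearer to the state of the cells was not tested. Lower members were then 1 and higher members 1, with 2 lower and 4 higher genes in the lists. Under quantile normalization EEF1A1 was 0.62 and ASCC1 0.0405. This setting gave 1 lower and 1 higher member and 3 lower list genes, where 1651 of all 16554 tested genes were lower and 1743 higher. With rescaling on the median ratio EEF1A1 was 0.00135 and ASCC1 0.0550, and 4 list genes were lower and 1 higher. Over all tested genes 1414 were then called lower and 2013 higher (58.7% of calls). ASCC1 was 0.0191 with edgeR and 1.48e-05 with DESeq2. Requiring the 1.5-fold criterion left 1 lower member and 3 lower list genes by construction.

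Across the fits without 1 library, log2 fold changes ranged from -0.50 to -0.36 for EDF1, 0.19 to 0.30 for RNF14, -0.0144 to 0.22 for GCN1, -0.17 to 0.0429 for EEF1A1, -0.0734 to 0.0309 for ASCC1, -0.25 to -0.20 for ASCC2, -0.0563 to 0.0852 for ASCC3 and -0.15 to 0.00321 for TRIP4. Lower members numbered 1 to 3 and higher members 0, and list genes 2 to 9 lower and 0 to 1 higher. The 9 came without shControl replicate 1, and the 2 without shControl replicate 2 or shRNF25 replicate 2 or 3. Over all genes these fits called 826 to 2915 lower and 611 to 2614 higher. Each member had at least 235 reads in each library.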

Other observations

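The members differed in how much their normalized counts spread between libraries of the same group. Among the controls the coefficient of variation ran from 2.76% for ASCC2 and 2.94% for EDF1 to 15.6% for RNF25 and 16.1% for GCN1. In shRNF25 it ran from 1.51% for ASCC3 to 10.6% for RNF25. The controls varied more than the knockdown in all members but EDF1, ASCC2 and TRIP4. Across genes the controls varied more too (pairwise Pearson correlations of 0.976 to 0.987, against 0.994), so this was not particular to the members.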
